A study of Homo sapiens with 36 samples.

Results

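Small nucleolar RNA (snoRNA) host genes are long noncoding RNAs whose introns carry snoRNAs, and 28 of them were described here in UM-SCC-1 cells with shRNAs against ALKBH5 or RBM33. They are every gene of the deposited expression table whose symbol starts with SNHG and a number, plus GAS5, ZFAS1 and EPB41L4A-AS1. The rule goes by name, but it was set with earlier results of these data known. The table lists 21797 genes, of which 18227 reached a mean of 1 CPM (read counts scaled to a normalized library size) and were tested, and all 28 host RNAs were among those tested. In the RBM33 set 9 of the 28 were lower in the shRNA libraries and 0 were higher, beside 9.25% lower and 8.5% higher of all tested genes. In the ALKBH5 set 4 were higher and 1 was lower, beside 7.93% higher and 7.18% lower of all tested genes. Their summed level had its highest group mean in the RBM33 scramble libraries. Between the shRNA libraries of one set and those of the other 0 of the 28 were called, beside 0.302% of all tested genes.

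A snoRNA host gene is transcribed, spliced, and its introns are processed into snoRNAs, which guide the chemical modification of ribosomal RNA in the nucleolus. Box C/D snoRNAs guide ribose methylation and box H/ACA snoRNAs guide pseudouridylation, while scaRNAs do the same work on spliceosomal RNAs in Cajal bodies. The spliced host RNA goes to the cytoplasm, where short open reading frames make many hosts targets of nonsense-mediated decay. Many also begin with a C and a run of pyrimidines, the 5′ terminal oligopyrimidine (5′TOP) tract that they share with ribosomal protein mRNAs and that ties translation to growth signals. N6-methyladenosine (m6A) is a mark on RNA that ALKBH5 removes, while RBM33 binds RNA and is known as a partner of ALKBH5.

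UM-SCC-1 is an established head and neck squamous carcinoma line, and the cells were transduced with retroviruses and selected with 10 µg/mL blasticidin for 4 days. The labels name 36 samples in 12 groups of 3, made of 18 RNA-seq inputs and 18 m6A-seq libraries, and the groups are a scramble shRNA and 2 shRNAs for each of ALKBH5 and RBM33. RNA-seq values of 15 libraries were used, and the other 3 were not analysed here. Both scramble groups and the group labelled RBM33 shRNA-2 have 3 libraries each, and the remaining groups (RBM33 shRNA-1 and either ALKBH5 shRNA) have 2. All groups share the parental line and the selection. The labels leave it unsaid whether replicates were grown apart, so the p-values reflect the spread of these libraries, possibly a technical one.

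The libraries held 4493849 to 6733017 reads in listed genes, and 1 read was worth 0.143 to 0.220 CPM. ALKBH5 RNA was lower in its shRNA libraries, by 0.53 on the log2 scale (SE 0.08, adjusted p = 9.1e-05), whereas RBM33 RNA changed by -0.10 in its set (SE 0.06, adjusted p = 0.27). The RBM33 shRNA groups are therefore named below as the libraries labelled RBM33 shRNA. Of 14 squamous markers, 7 had a mean of at least 1 CPM, led by DSP at 192 CPM, and KRT5, KRT6A, KRT14, KRT17, TP63 and PKP1 were not among the listed genes. Of 7 fibroblast markers, 6 had a mean of at least 1 CPM, led by COL1A1 at 20 CPM and summing to 29.2 to 41.4 CPM per library, and the melanocyte regulator MITF was at 15.9 CPM. Leukocyte markers summed to 1.53 to 6.16 CPM and endothelial markers to 1.5 to 5.47 CPM per library. As these are bulk samples, fewer cells of a type and less RNA per cell cannot be told apart.

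RefSeq promoter sequences (build GRCh38.p14) matched 24 of the 28 host genes, and they show how the 5′TOP tract is distributed among hosts that moved and hosts that did not. A start was counted as such a tract when the annotated first base was C and at least 4 bases of C or T followed, read on the strand of the gene. By this rule 6 of 24 hosts had the tract, or 25% against 4.07% of 35116 RefSeq promoters. The 5 tract-bearing hosts that were called in either set are shown first, each with 10 bases before the start and with the tract in capitals.
SNHG32: cattttagttCTTTTTgcgaagtgggctcg
ZFAS1: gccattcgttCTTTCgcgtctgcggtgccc
SNHG5: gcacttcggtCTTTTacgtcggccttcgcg
SNHG4: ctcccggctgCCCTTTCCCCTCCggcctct
SNHG19: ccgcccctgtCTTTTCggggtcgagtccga
SNHG32, ZFAS1 and SNHG5 were lower in the RBM33 set, while SNHG4 and SNHG19 were higher in the ALKBH5 set. The remaining host with a tract, SNHG12, is not shown. Its tract was 11 bases long, and it was called in neither set. Windows follow from 4 of the 5 hosts that were lower in the RBM33 set without such a tract at the RefSeq start, SNHG16 not being shown.
GAS5: tcatgaattcagatgtgtttattttggagc
SNHG1: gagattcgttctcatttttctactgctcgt
SNHG8: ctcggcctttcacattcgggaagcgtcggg
SNHG7: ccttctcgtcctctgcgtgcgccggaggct
The windows lie at chr6:31834906-31834935 (+) for SNHG32, chr20:49278632-49278661 (+) for ZFAS1, chr6:85678714-85678743 (-) for SNHG5, chr5:139274091-139274120 (+) for SNHG4 and chr16:2155339-2155368 (-) for SNHG19. The hosts without the tract lie at chr1:173869026-173869055 (-) for GAS5, chr11:62855866-62855895 (-) for SNHG1, chr4:118278752-118278781 (+) for SNHG8 and chr9:136728165-136728194 (-) for SNHG7. Changes occurred with and without the tract: 3 of the 6 hosts with it and 5 of the 18 without it were lower in the RBM33 set, and 2 of the 6 and 2 of the 18 were higher in the ALKBH5 set. RefSeq and the deposited annotation place some starts apart, by 464 bases for ZFAS1, 308 for SNHG32, 199 for SNHG5 and 163 for GAS5. A looser search for the same letters within 20 bases of the start found them in 19 of 24 hosts and in 51% of all promoters. It found them in SNHG1, SNHG8, SNHG7 and SNHG16 but not in GAS5, so the split by tract depends on the annotated start.

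Levels spanned a wide range. GAS5, named for its rise in growth-arrested cells, had the highest mean over the 15 libraries, 615 CPM, followed by SNHG1 at 349.8, SNHG17 at 267, SNHG29 at 202 and SNHG3 at 129.6 CPM. The lowest mean was that of SNHG31 at 2.38 CPM. Per kb of the deposited gene length, the order began with GAS5 at 127 CPM per kb, SNHG1 at 88.1, SNHG6 at 53.7, SNHG3 at 31.7 and SNHG29 at 28.1, and it ended with SNHG14, the very long host of the imprinted Prader-Willi region, at 0.0299 CPM per kb. Summed over the 28, the hosts made up 2878 CPM in the RBM33 scramble libraries (SD 216, n = 3), 2356 in the ALKBH5 scramble libraries (SD 323, n = 3), 2144 in ALKBH5 shRNA-1 (SD 148, n = 2), 2300.0 in ALKBH5 shRNA-2 (SD 190, n = 2), 2046 in the libraries labelled RBM33 shRNA-1 (SD 156, n = 2) and 2242 in those labelled RBM33 shRNA-2 (SD 390, n = 3). Every RBM33 scramble library, from 2647 CPM upwards, was above every library labelled RBM33 shRNA, which reached 2613 CPM. This separation depends on the normalization. As a share of reads in listed genes, RBM33 scramble replicate 3 (0.252%) lay below replicate 2 of the libraries labelled RBM33 shRNA-2 (0.258%). The ALKBH5 scramble libraries, at 2063 to 2703 CPM, overlapped with both ALKBH5 shRNA groups.

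The first question was what happened to the host RNAs in the RBM33 set. A gene was called when its Benjamini-Hochberg adjusted p over all 18227 genes was under 0.05 in a limma fit of log2(CPM + 1), a scale that understates changes of low genes. With both shRNAs averaged, 9 of 28 hosts were lower, while 9.25% of all tested genes were, and 0 were higher, while 8.5% of all tested genes were. The median change of the 28 was -0.21 on the log2 scale, against -0.01 over all tested genes and 0.13 over 2410 tested long noncoding RNAs. Among those 2410, 200 were higher and 61 lower, the opposite balance to that of the hosts. The groups did not overlap for 6 hosts that were lower (11.6% of all genes) and 1 that was higher (10.8% of all genes).

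GAS5 (chr1:173858559-173868882, minus strand) hosts a large group of box C/D snoRNAs. The RBM33 scramble libraries held 853, 921 and 658 CPM of it. It was at 424 and 527 CPM in those labelled RBM33 shRNA-1, and at 378, 715 and 599.7 CPM in those labelled shRNA-2. One shRNA-2 library, replicate 2, lay above the lowest scramble library, so the groups overlapped, and the other 4 lay below all scramble libraries. The shRNA mean was 63.3% of the scramble mean, a fall of 0.66 on the log2 scale (SE 0.15, adjusted p = 0.0037). In this and all later percentages of a scramble mean, the means are those of log2(CPM + 1), with their difference turned back into a ratio. They are not ratios of mean CPM. SNHG1 (chr11:62851984-62855953, minus strand), another host of many box C/D snoRNAs, had 489.8, 508 and 413 CPM in the scramble libraries, 229.9 and 267 CPM in shRNA-1 and 220 CPM, 394 CPM and 303 CPM in shRNA-2. All 5 shRNA libraries lay below all 3 scramble libraries. SNHG1 fell to 58.1% of the scramble mean, or by 0.78 on the log2 scale (SE 0.13, adjusted p = 0.00015).

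SNHG32 (chr6:31834608-31839766, plus strand) hosts SNORD48 and SNORD52 and had the largest fall of the 28. Its levels were 46.4, 47.1 and 39.5 CPM in the scramble libraries, 21.5 and 17.4 CPM in the libraries labelled shRNA-1 and 25.7, 31.2 and 23.8 CPM in those labelled shRNA-2, with no overlap. The fall to 52.6% of the scramble mean was 0.93 on the log2 scale (SE 0.13, adjusted p = 1.4e-05). A clone-named long noncoding RNA, AL671762.1, overlaps SNHG32 on the same strand, and it went the other way, by 2.42 on the log2 scale in the RBM33 set (adjusted p = 5.7e-17) and by 2.91 in the ALKBH5 set (adjusted p = 2e-18). Reads from the shared stretch cannot be told apart between these 2 entries, so the value of SNHG32 is uncertain.

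ZFAS1 (chr20:49278178-49299600, plus strand), the antisense partner of ZNFX1, carries the SNORD12 family and the tract CTTTC shown above. It had 95.2, 104 and 86.9 CPM in the scramble libraries, 51.5 and 63.6 CPM in shRNA-1 and 45.3, 71.4 and 71.9 CPM in shRNA-2, with no overlap. Its level fell to 62.9% of the scramble mean, by 0.67 on the log2 scale (SE 0.12, adjusted p = 5e-04). ZNFX1, which overlaps it on the opposite strand, was higher by 0.47 (adjusted p = 0.007), and 2 clone-named entries on the strand of ZFAS1, AL049766.1 and AL049766.3, were lower by 0.52 and 0.41. Whether strand was used in counting is not given in the sources.

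SNHG16 and SNHG5 also host box C/D snoRNAs. SNHG16 (chr17:76557764-76565348, plus strand) was at 136, 139.7 and 119 CPM in the scramble libraries, 94.8 and 75.7 CPM in shRNA-1 and 84.9, 123 and 106 CPM in shRNA-2. Replicate 2 of shRNA-2 again lay above the lowest scramble library. SNHG16 fell by 0.48 (SE 0.11, adjusted p = 0.0036), to 71.7% of the scramble mean. SNHG5 (chr6:85650491-85678932, minus strand) was at 79.7, 83.5 and 94.9 CPM in the scramble libraries, 68.4 and 58.8 CPM in shRNA-1 and 56.7, 82.5 and 59.8 CPM in shRNA-2. The same shRNA-2 library overlapped with the scramble range. SNHG5 fell by 0.41 (SE 0.11, adjusted p = 0.0089), to 75.4%, and without RBM33 scramble replicate 3 its change of -0.34 was no longer called (adjusted p = 0.071).

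The box H/ACA hosts SNHG8, SNHG7 and SNHG15 fell as well, each without overlap between scramble and shRNA libraries. SNHG8 (chr4:118278709-118285316, plus strand), host of SNORA24, had 80.0, 95.4 and 91.7 CPM in the scramble libraries, 51.7 and 57.7 CPM in shRNA-1 and 57.4, 68.1 and 53.5 CPM in shRNA-2. The highest shRNA library was thus well under the lowest scramble library. Its fall was 0.63 (SE 0.12, adjusted p = 0.00059), to 64.5%. SNHG7 (chr9:136721366-136728184, minus strand), host of the SNORA17 pair, had 66.4, 68.3 and 72.1 CPM in the scramble libraries, 43.1 and 51.2 CPM in shRNA-1 and 49.0, 45.9 and 55.9 CPM in shRNA-2. It fell by 0.50 (SE 0.10, adjusted p = 0.00099), to 70.9%. SNHG15 (chr7:44983023-44986961, minus strand), host of SNORA9, had closely spaced scramble libraries at 127, 126 and 129 CPM. The libraries labelled shRNA-1 had 87.3 and 100.3 CPM and those labelled shRNA-2 had 98.9, 83.5 and 90.5 CPM of it, and it fell by 0.46 (SE 0.08, adjusted p = 0.00043), to 72.7%.

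**Figure D1:**
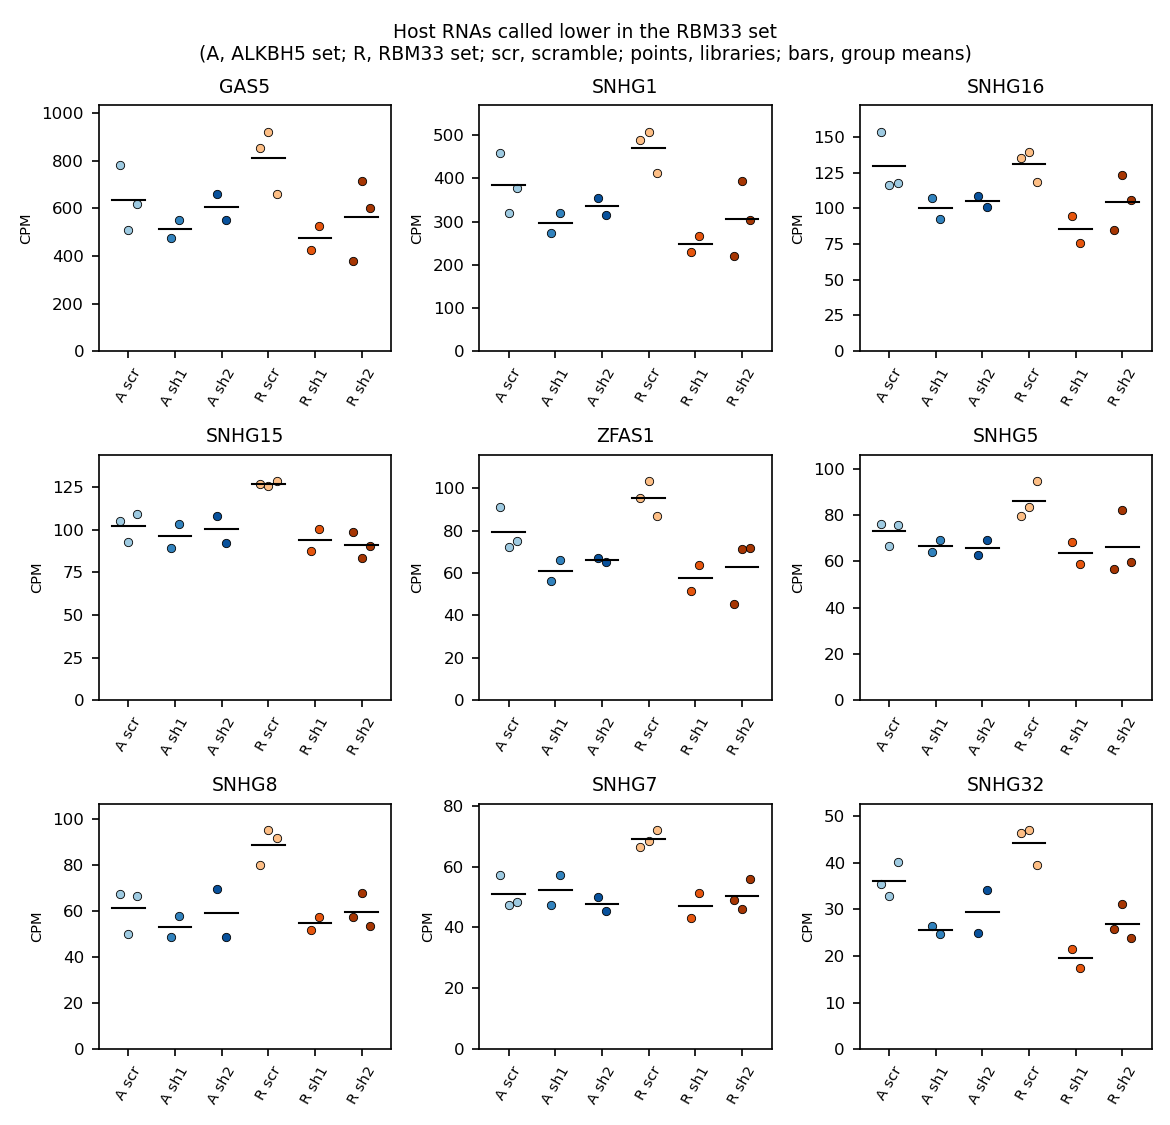
CPM of the 9 host RNAs that were lower in the RBM33 set, one panel per gene with a linear axis from 0, for the 6 groups of libraries (points, single libraries, n = 2 or 3; bars, group means). In GAS5, SNHG16 and SNHG5 a library labelled RBM33 shRNA-2 lies within the range of the RBM33 scramble libraries, and in the other 6 panels the RBM33 scramble libraries lie above all libraries labelled RBM33 shRNA.

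The calls were also made for each shRNA. In the libraries labelled shRNA-1 9 hosts were lower (5.27% of all tested genes were), and in those labelled shRNA-2 8 were lower (7.27% of all tested genes were), with SNHG16, which was called for shRNA-1, at -0.34 and an adjusted p of 0.070 for shRNA-2. These comparisons share the scramble libraries. The direct test of shRNA-1 against shRNA-2 called 0 of the 28 with limma, with 2 at an unadjusted p under 0.05, and it called 0 of all 18227 tested genes, so the count says nothing about the hosts in particular. The shRNA-1 count rests on 2 libraries: without replicate 1 of shRNA-1 it was 3. In the authors' deposited table from edgeR, 8 of the 28 were lower and 0 higher for shRNA-1, and in the authors' deposited table for shRNA-2 these counts were 7 and 0. SNHG1 in these authors' deposited tables was at -0.92 (adjusted p = 3.2e-08) for shRNA-1 and at -0.62 (adjusted p = 0.24) for shRNA-2. GAS5 in these authors' deposited tables was called for neither shRNA, at -0.77 (adjusted p = 0.067) and -0.52 (adjusted p = 0.39). The authors' deposited tables from DESeq2 list 24 of the 28 by current symbol and SNHG29 and SNHG32 by the older symbols LRRC75A-AS1 and C6orf48 (RefSeq synonyms). Of these 26, 8 were lower and 0 higher for each shRNA in the authors' deposited DESeq2 tables. GAS5 was called in both (-0.26 with adjusted p = 0.00095, and -0.40 with adjusted p = 1.9e-07, in the authors' deposited DESeq2 tables), as was SNHG1 (-0.42 and -0.49). EPB41L4A-AS1, not called in the limma fit, was also lower in both, at -0.59 (adjusted p = 0.0082) and -0.79 (adjusted p = 0.0021) in the authors' deposited DESeq2 tables. SNHG7, called in the limma fit, was called in neither of the authors' deposited DESeq2 tables (adjusted p = 0.31 and 0.21). The authors' deposited DESeq2 table for shRNA-1 lacks the test statistic that the one for shRNA-2 gives. Its change for SNHG9 was 0.016, against 0.588 in the authors' deposited edgeR table. The DESeq2 changes of the 2 shRNAs may thus be on different scales, and their sizes are not compared.

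The other hosts of the RBM33 set were not called. SNHG12, host of SNORD99 and of 3 H/ACA snoRNAs, was at 51.2, 42.7 and 44.1 CPM in the scramble libraries, 34.7 and 36.3 CPM in shRNA-1 and 32.3, 44.2 and 37.1 CPM in shRNA-2, a difference of -0.32 (adjusted p = 0.073). SNHG6 was at 80.3, 87.3 and 66.1 CPM, then 46.9 and 70.5 CPM, then 49.2, 72.6 and 77.0 CPM in the same order of groups, a difference of -0.33 (adjusted p = 0.12). EPB41L4A-AS1, an antisense RNA that hosts SNORA13, was at 31.0, 34.5 and 33.2 CPM in the scramble libraries, 32.2 and 26.8 CPM in shRNA-1 and 19.6, 28.2 and 25.8 CPM in shRNA-2, a difference of -0.29 (adjusted p = 0.14). In all 3 the shRNA and scramble ranges overlapped. SNHG3, host of the abundant SNORA73 pair, was at 152, 150.2 and 135 CPM in the scramble libraries, 137 and 149.6 CPM in shRNA-1 and 126, 155 and 129 CPM in shRNA-2 (difference -0.06, 95% interval -0.30 to 0.19). SNHG29, host of SNORD49A, SNORD49B and SNORD65, ranged over 204.6 to 224 CPM in the scramble libraries and had a difference of 0.01 (95% interval -0.13 to 0.15). These intervals leave out a fall of the size seen in SNHG1 or SNHG32. Among the remaining 10 hosts (SNHG20, SNHG11, SNHG30, SNHG22, SNHG21, SNHG26, SNHG25, SNHG14, SNHG9 and SNHG31), with means of 2.38 to 34.4 CPM, 0 were called in any comparison. Their differences ranged from -0.33 to 0.45 in the RBM33 set and from -0.35 to 0.20 in the ALKBH5 set. SNHG4, with a difference of 0.25 (adjusted p = 0.18), was the host whose shRNA libraries all lay above the scramble libraries.

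**Figure D2:**
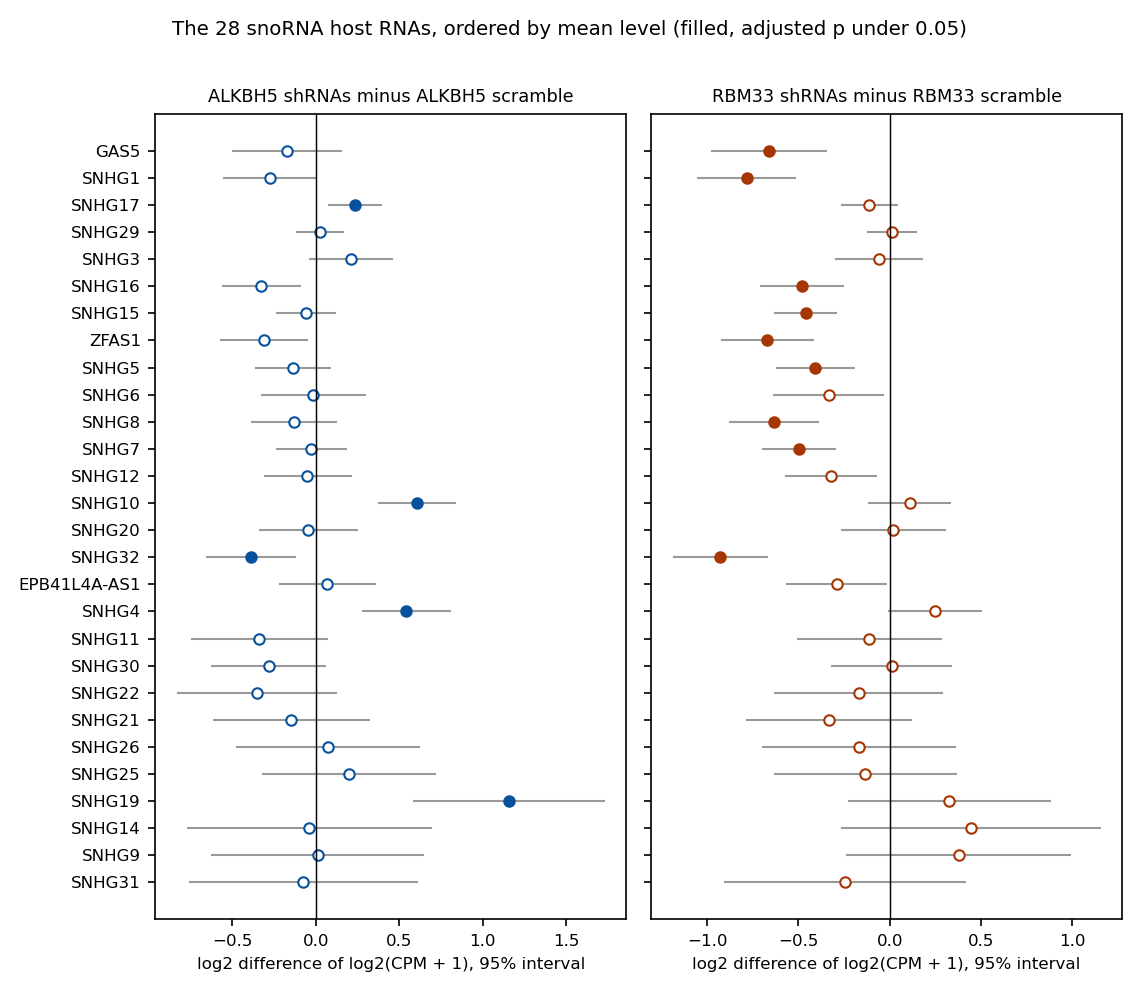
Log2 difference between shRNA and scramble libraries, with its 95% interval (horizontal lines), for all 28 hosts from the highest mean level (top) to the lowest (bottom) in the ALKBH5 set (left) and the RBM33 set (right); filled points had an adjusted p under 0.05. On the right the 9 filled points lie between -0.93 and -0.41, and on the left 4 lie above 0 and SNHG32 lies at -0.39.

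The second question was what happened in the ALKBH5 set. Of the 28 hosts 4 were higher (7.93% of all tested genes were) and 1 was lower (7.18% of all tested genes were). The median of the 28 was -0.05, against 0.01 over all tested genes and 0.15 over the long noncoding RNAs. Libraries did not overlap for 4 hosts that were higher (12.3% of all genes) and 3 that were lower (11.9% of all genes).

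SNHG10 (chr14:95521943-95534889, minus strand), host of SCARNA13, measured 26.0, 30.1 and 29.4 CPM in its 3 scramble libraries, 51.0 and 43.8 CPM in shRNA-1 and 43.6 and 38.2 CPM in shRNA-2. All 4 shRNA libraries were above all 3 scramble libraries. The mean reached 152% of the scramble mean, a rise of 0.61 (SE 0.11, adjusted p = 0.00074). SNHG17 (chr20:38419638-38435409, minus strand), host of the SNORA71 family, had 242, 217 and 239 CPM in the scramble libraries, 259 and 271 CPM in shRNA-1 and 284 and 279.6 CPM in shRNA-2. It was higher by 0.23 (SE 0.08, adjusted p = 0.045), to 118%, and the adjusted p was 0.063 with edgeR on the recovered reads. SNHG32, the host that was lower, had 35.5, 32.9 and 40.2 CPM in the scramble libraries, 26.4 and 24.8 CPM in shRNA-1 and 24.8 and 34.1 CPM in shRNA-2. Replicate 3 of shRNA-2 lay within the scramble range, and the difference was -0.39 (SE 0.13, adjusted p = 0.046), with the shared stretch named above. This call of SNHG32 was lost in 8 of 15 fits that left out 1 library (adjusted p up to 0.20) and with the replicate block (adjusted p = 0.067).

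SNHG4 and SNHG19 lie outside the rule for printing single libraries and were added after their values were seen, because both were called. SNHG4 (chr5:139274102-139284899, plus strand), host of SNORA74A, was at 20.2, 20.1 and 19.8 CPM in the scramble libraries, 33.5 and 34.1 CPM in shRNA-1 and 24.3 and 27.8 CPM in shRNA-2. The scramble libraries were close together and below all shRNA libraries, and the rise was 0.54 (SE 0.13, adjusted p = 0.0059), to 146%. SIL1, which overlaps SNHG4 on the opposite strand, was also higher, by 0.53 (adjusted p = 0.0025). SNHG19 (chr16:2154797-2155358, minus strand), host of SNORD60, was at 1.37, 1.54 and 2.64 CPM in the scramble libraries, 6.02 and 6.93 CPM in shRNA-1 and 5.35 and 3.28 CPM in shRNA-2. It rose by 1.16 (SE 0.28, adjusted p = 0.0063), from a level of few reads. The count of 5 called hosts became 3 (SNHG4, SNHG10 and SNHG19) when any one of ALKBH5 scramble replicate 2 or 3, ALKBH5 shRNA-1 replicate 1 or 2, ALKBH5 shRNA-2 replicate 1, or RBM33 scramble replicate 1 or 2 was left out.

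**Figure D3:**
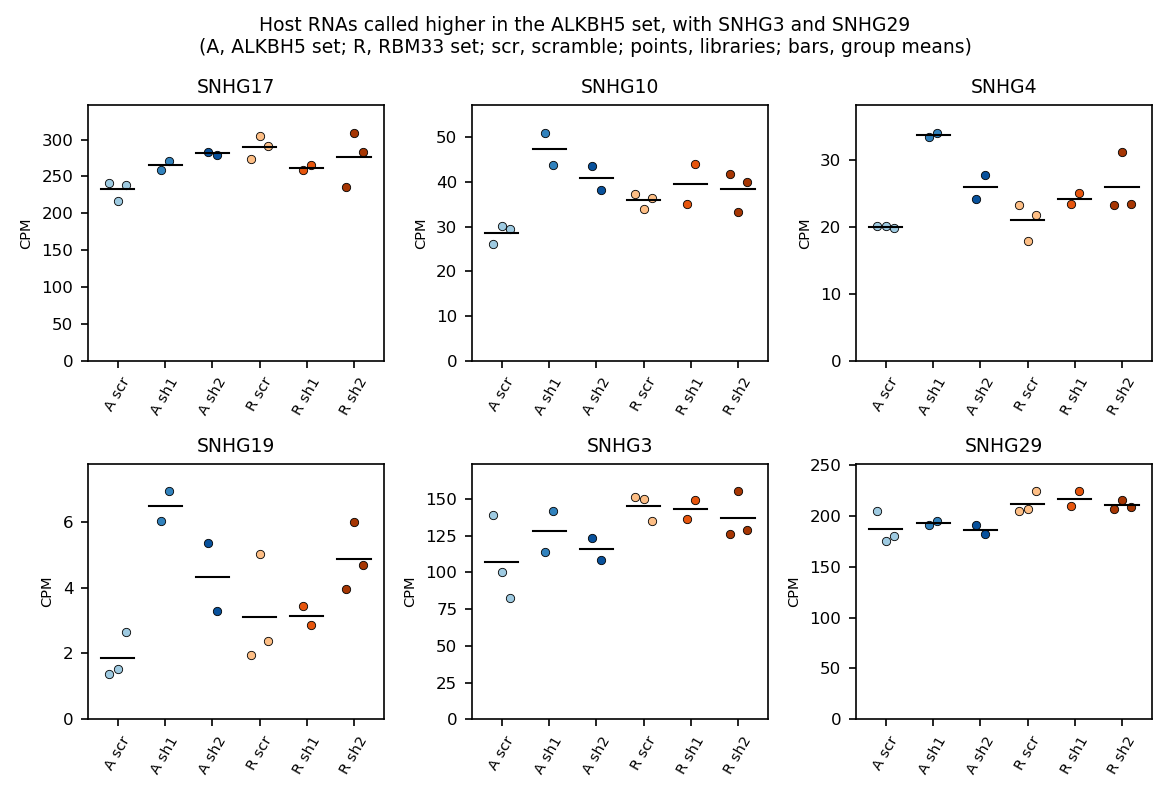
CPM of SNHG17, SNHG10, SNHG4 and SNHG19, which were higher in the ALKBH5 set, and of SNHG3 and SNHG29, which were called in no comparison, in the 6 groups of libraries (points, single libraries; bars, group means; linear axes from 0). The ALKBH5 scramble libraries lie below all ALKBH5 shRNA libraries in the first 4 panels.

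By shRNA, 3 hosts were called for ALKBH5 shRNA-1 (8.53% of all tested genes were, in either direction), namely SNHG10, SNHG4 and SNHG19 at 0.71, 0.73 and 1.42. For ALKBH5 shRNA-2 1 was called (10.1% of all tested genes were), SNHG10 at 0.50 (adjusted p = 0.019). The direct test between the 2 shRNAs called 0 of the 28 with limma, with 1 at an unadjusted p under 0.05, and likewise 0 of all 18227 tested genes. Without ALKBH5 shRNA-1 replicate 1 the count for shRNA-1 was 1, and without ALKBH5 scramble replicate 1 or ALKBH5 shRNA-2 replicate 1 the count for shRNA-2 was 0. It was 2 without RBM33 shRNA-2 replicate 1 or 2.

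The hosts that were lower in the RBM33 set were not called in the ALKBH5 set, apart from SNHG32. GAS5 had 781, 507 and 620.2 CPM in the scramble group of ALKBH5, 475 and 549 CPM in shRNA-1 and 662 and 551 CPM in shRNA-2 (difference -0.17, adjusted p = 0.52). SNHG1 was at 458, 319 and 379 CPM, then 274 and 319.7 CPM, then 356 and 316 CPM (difference -0.27, adjusted p = 0.19). Their scramble libraries spread widely, with replicate 1 highest in both, and overlapped with the shRNA libraries. SNHG16 was at 154, 117 and 118 CPM in the scramble libraries, 107 and 92.6 CPM in shRNA-1 and 109 and 101 CPM in shRNA-2 (difference -0.33, adjusted p = 0.058). ZFAS1 was at 91.0, 72.1 and 75.2 CPM, then 56.3 and 66.0 CPM, then 67.3 and 65.1 CPM (difference -0.31, adjusted p = 0.11). In both, all shRNA libraries lay below all scramble libraries, and SNHG16 was called under some other settings (adjusted p = 0.044 with edgeR and 0.035 with DESeq2 on the recovered reads).

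SNHG8, SNHG7, SNHG15 and SNHG5 were not called in the ALKBH5 set, and their shRNA and scramble libraries overlapped. SNHG8 had 67.7, 50.3 and 66.7 CPM in the scramble group of ALKBH5, 48.7 and 58.0 CPM in shRNA-1 and 69.5 and 48.8 CPM in shRNA-2. SNHG7 was at 57.1, 47.3 and 48.5 CPM, then 47.5 and 57.2 CPM, then 49.9 and 45.5 CPM in the same order. The shRNA libraries of both fell on either side of the scramble mean. SNHG15 was at 105, 93.1 and 109 CPM in the scramble libraries, 89.5 and 103 CPM in shRNA-1 and 108 and 92.5 CPM in shRNA-2. SNHG5 was at 76.4, 66.7 and 76.0 CPM, then 63.9 and 69.3 CPM, then 62.7 and 69.4 CPM. Their differences ranged from -0.14 for SNHG5 to -0.03 for SNHG7. SNHG12 and SNHG6 differed by -0.05 and -0.02, SNHG3 by 0.21 (adjusted p = 0.27) and EPB41L4A-AS1 by 0.07.

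Whether the 2 sets differed was tested directly. The ALKBH5 effect minus the RBM33 effect called 0 of 28 hosts with limma (2.69% of all tested genes were called), with 9 at an unadjusted p under 0.05, 0 with edgeR and 2 with DESeq2 (SNHG15 and SNHG17). The median difference of effects was 0.28, and the lowest adjusted p-values were 0.079 for SNHG7, 0.080 for SNHG15, 0.091 for SNHG17 and 0.093 for SNHG10. Without ALKBH5 shRNA-2 replicate 3, or without RBM33 shRNA-2 replicate 2, 2 hosts were called. This test thus does not show a fall of the hosts that differs between the sets.

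The 2 scramble groups themselves differed. Of the 28 hosts 23 had a lower value in the ALKBH5 scramble than in the RBM33 scramble, with a median of -0.25 against 0.003 over all tested genes. Called lower were 3 (2.21% of all tested genes were), SNHG8 at -0.53 (adjusted p = 0.028), SNHG7 at -0.43 (adjusted p = 0.032) and SNHG17 at -0.32 (adjusted p = 0.040), and 0 were higher (0.269% of all tested genes were). The count was 0 without ALKBH5 scramble replicate 2, RBM33 scramble replicate 2 or RBM33 scramble replicate 3, and 1 without ALKBH5 scramble replicate 3 or RBM33 scramble replicate 1. It was 5 when only these 2 groups entered the fit and 0 when each library was scaled to the same total. The deposited CPM of the RBM33 scramble libraries summed to 1045915 to 1050515, against 954042 to 992833 in the ALKBH5 scramble libraries.

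Between the shRNA libraries of the 2 sets, 0 of 28 hosts were called with limma (0.302% of all tested genes were), 0 with edgeR and 0 with DESeq2, with 4 at an unadjusted p under 0.05. The median of ALKBH5 shRNA minus RBM33 shRNA was 0.05. The 95% interval of this difference was -0.16 to 0.42 for GAS5, -0.03 to 0.46 for SNHG1, -0.26 to 0.19 for SNHG8 and -0.15 to 0.23 for SNHG7. For SNHG32 it was 0.01 to 0.49 (adjusted p = 0.40). With both scramble groups pooled as the reference, an alternative chosen after seeing the data, 7 hosts were lower in the RBM33 set, SNHG8 (adjusted p = 0.056) and SNHG7 (adjusted p = 0.073) no longer being called. Under the same reference 7 hosts were called in the ALKBH5 set, with SNHG1, SNHG16, ZFAS1 and SNHG32 lower and SNHG10, SNHG4 and SNHG19 higher. The pooled medians were -0.20 in the RBM33 set and -0.16 in the ALKBH5 set.

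The library facts that moved with these values were the following. The RBM33 scramble libraries held 6157074 to 6495793 reads in listed genes and those labelled RBM33 shRNA 4493849 to 5439147, with mitochondrial RNA at 4.39% to 5.03% and 3.85% to 6.09% of reads. Within the libraries labelled shRNA-2, replicate 1 had the lowest mitochondrial share (3.85%) and the lowest host sum (1835 CPM), and replicate 2 the highest of both (6.09% and 2613 CPM). In the ALKBH5 scramble, replicate 1 had the highest mitochondrial share (6.45%) and the highest host sum (2703 CPM). The part of depth and mitochondrial share in the result was not tested. With each library scaled to the same total, the same 9 hosts were lower in the RBM33 set.

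The snoRNAs themselves were also in the table. Inside the host spans 52 snoRNA or scaRNA entries were listed, of which 47 did not repeat another entry's position and 41, in 22 hosts, were tested. In the RBM33 set 14 of the 41 were lower and 0 higher, with a median of -0.40, beside 81 lower and 0 higher of all 250 tested snoRNA and scaRNA genes, with a median of -0.44. The share lower inside the hosts was thus close to that of all snoRNA genes, a set that contains the 41 and also keeps repeated entries. In the ALKBH5 set 0 were lower and 1 was higher, SCARNA13 inside SNHG10, at 0.55 (adjusted p = 0.014), beside 10 higher and 7 lower of the 250.

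Box C/D snoRNAs accounted for most of these calls. Of 17 tested box C/D entries 10 were lower in the RBM33 set (median -0.84), and of 18 box H/ACA entries 4 were (median -0.23), while 0 of 6 scaRNA or clone-named entries were. Within SNHG1, SNORD22 was at -0.94 (adjusted p = 0.00033), SNORD28 at -1.16, SNORD27 at -1.16 and SNORD26 at -0.82, so 4 of its 5 tested snoRNAs were lower, as was the host entry. The deposited lengths of SNHG1 (3970 bases), SNHG8 (6608) and SNHG15 (3939) equal their whole spans, so these entries cover the introns and the snoRNA positions. Host and snoRNA values there come from shared stretches and are not shown to be separate readings, and how reads were assigned was not tested. SNORD12B in ZFAS1 was at -1.26 (adjusted p = 0.0076), SNORD1C in SNHG16 at -1.01, SNORA17B in SNHG7 at -0.74 and SNORA24 in SNHG8 at -0.57. SNORD99 in SNHG12 (-1.22), SNORD104 in SNHG25 (-0.995), SNORD60 in SNHG19 (-0.77) and SNORA74D in SNHG4 (-1.08) were lower inside hosts that were not called. The host and its snoRNA also parted in SNHG17, where SNORA71A was lower by 0.48 (adjusted p = 0.020) and the host was at -0.11. SNORD87 was lower as well, by 0.955 (adjusted p = 0.016), inside SNHG6, which was not called. In all, 8 of 14 snoRNAs in 7 called hosts were lower and 6 of 27 in 15 hosts that were not called. Of these 8, 4 lay in SNHG1. The called hosts held mostly box C/D entries and the other hosts mostly other kinds. Among box C/D entries the share lower was similar in called and uncalled hosts, so the counts do not show that snoRNAs fell with their host.

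**Figure D4:**
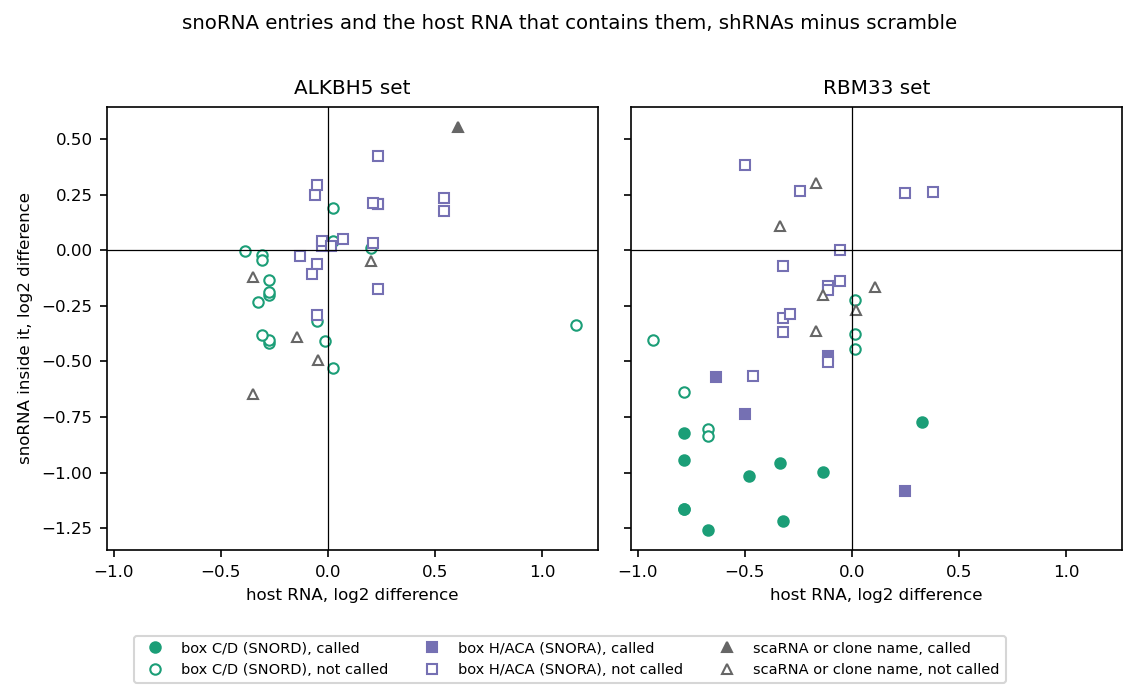
Log2 difference of each tested snoRNA entry (vertical axis) against that of the host RNA around it (horizontal axis) in the ALKBH5 set (left) and the RBM33 set (right), for 41 entries in 22 hosts; circles are box C/D, squares box H/ACA, triangles scaRNA or clone-named entries, and filled symbols had an adjusted p under 0.05. On the right the 14 filled points lie below 0, including some whose host lies near or above 0, and on the left the filled point is SCARNA13 in SNHG10.

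Box C/D entries are also the shortest ones, at 64 to 126 bases against 127 to 272 for box H/ACA. All 551 tested genes of at most 250 bases had a median of -0.40 in the RBM33 set, -0.14 in the ALKBH5 set and -0.29 between the scramble groups, and 0.03 between the shRNA libraries of the 2 sets. None of the 28 hosts was that short. Reads from snoRNA genes made up 1.34% to 1.5% of the RBM33 scramble libraries, 0.993% to 1.22% of those labelled shRNA-1 and 0.928% to 1.34% of those labelled shRNA-2, and the part of fragment length in these differences was not tested. The table lists no snoRNA entry inside GAS5 or SNHG5, although RefSeq places 11 snoRNA genes in GAS5 and 2 in SNHG5, so these hosts could not be compared with their products. RefSeq places at least 1 snoRNA gene in 24 of the 28 hosts and 144 in all, of which 83 are in SNHG14.

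Genes of the machinery around the hosts were described from lists chosen with earlier results of these data known. Of all tested genes, 8.5% were higher and 9.25% lower in the RBM33 set. In the ALKBH5 set these shares were 7.93% and 7.18%. Among 20 proteins that make up or assemble snoRNA particles, 2 were higher and 1 lower in the RBM33 set, with the assembly factor SHQ1 and the export adaptor PHAX higher by 0.35 and 0.37 and the core box C/D protein NOP58 lower by 0.36. In the ALKBH5 set 4 were higher and 2 lower, among them the core box H/ACA protein NHP2 at 0.57 and the box C/D assembly factor ZNHIT6 at -0.57. Among 24 nonsense-mediated decay factors, 10 were higher and 0 lower in the RBM33 set (median 0.21), with the helicase DHX34 at 0.50, SMG8 at 0.45, the exon junction protein RBM8A at 0.35 and the kinase SMG1 at 0.30. In the ALKBH5 set 4 of the 24 were higher and 2 lower, led by MAGOH at 0.86 and DHX34 at 0.72. Of 17 protein-coding RNAs known to be sensitive to this decay, 4 were higher (SRSF6 at 0.61, SRSF2 at 0.56, CDKN1A at 0.48, SRSF3 at 0.30), 0 lower and 13 not called in the RBM33 set (median 0.02), and 8 were higher and 1 lower in the ALKBH5 set.

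Protein-coding hosts gave another comparison, to be read beside the same shares of all tested genes. Of 50 protein-coding genes that carry snoRNAs, 18 were lower and 4 higher in the RBM33 set, and 4 were lower and 19 higher in the ALKBH5 set, with the chaperone HSPA8 higher in both (0.99 and 1.33). In the scramble comparison 27 of the 50 were lower in the ALKBH5 scramble (2.21% of all tested genes were). In the comparison of the shRNA libraries of the 2 sets 0 were called (0.302% of all tested genes were). Ribosomal proteins, whose mRNAs begin with the 5′TOP tract, had 25 of 79 lower and 1 higher in the RBM33 set. In the ALKBH5 set 39 were higher and 0 lower, and 58 were lower in the ALKBH5 scramble than in the RBM33 scramble. Of 21 other 5′TOP mRNAs, 4 were higher and 5 lower in the RBM33 set (median 0.01, against -0.01 over all tested genes). In the ALKBH5 set 11 of these 21 were higher and 2 lower, and 7 were lower in the ALKBH5 scramble than in the RBM33 scramble. The difference between effects was called for 15 of the 50 protein-coding hosts (median 0.27, beside 0.28 for the 28 noncoding hosts). It was called for 38 of the 79 ribosomal proteins, 6 of the 21 other 5′TOP mRNAs and 2.69% of all tested genes. The median over the 79 ribosomal proteins was 0.37. The lists share genes: many of the 50 protein-coding hosts are ribosomal protein genes, and EEF1B2, EEF2, TPT1 and RACK1 are also among the 21 other 5′TOP mRNAs. Values of the protein-coding hosts are therefore not separate from those of the other lists. No test compared these lists with one another. Of 27 other well-known long noncoding RNAs, 10 were higher and 6 lower in the RBM33 set, with PVT1 at 0.90, CYTOR at 0.66, TERC at -0.69 and CRNDE at -0.61.

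For m6A, the authors' deposited tables give differential peaks of 50 bases, each with an effect (natural log of the ratio of shRNA to scramble) and a p-value. They list effects of at least 0.5 in size, so a host without a listed peak is not shown to be unchanged, and as no m6A value per library was used, no spread can be given. The largest listed p-value also differed between the authors' deposited tables. It was 0.006 for ALKBH5 shRNA-1, 0.0083 for ALKBH5 shRNA-2, 0.00068 for RBM33 shRNA-1 and 0.0011 for RBM33 shRNA-2. Counts of hosts with a peak are therefore read beside the shares of the same table, not between tables. The authors' deposited tables hold 28 peak entries, at 22 positions, that carry the current symbol of 11 hosts, 23 with more and 5 with less m6A in the shRNA libraries. A further 4 entries carry LRRC75A-AS1, an older symbol of SNHG29, so that 12 hosts had 32 entries at 25 positions (26 with more and 6 with less m6A), and 16 hosts had none. By current symbol, as counted for all genes, hosts with a peak numbered 6 of 28 for ALKBH5 shRNA-1 (32.6% of 18171 tested gene names had one in the authors' deposited table), 8 for ALKBH5 shRNA-2 (38.2%), 5 for RBM33 shRNA-1 (7.94%) and 4 for RBM33 shRNA-2 (11.5%). With the older symbol of SNHG29 these counts were 6, 9, 6 and 5 in the authors' deposited tables. Since peaks need expressed RNA, the 18 hosts with a mean of at least 20 CPM were set beside 166 long noncoding RNAs at that level, again by current symbol: 5, 7, 5 and 4 of the 18 hosts (5, 8, 6 and 5 with SNHG29) had a peak in the authors' deposited tables, against 21.1%, 29.5%, 7.83% and 10.2% of those RNAs and 56.2%, 64.2%, 14.8% and 20.2% of all genes at that level.

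SNHG8 carried the most repeated of these peaks. At chr4:118278812-118278861, 103 bases from the deposited start of the gene, the authors' deposited tables list an effect of 0.94 for ALKBH5 shRNA-1 (authors' p = 1e-04), 0.83 for ALKBH5 shRNA-2 (authors' p = 0.00014), 1.08 for RBM33 shRNA-1 (authors' p = 0.00058) and 1.15 for RBM33 shRNA-2 (authors' p = 0.00061). As ratios these effects from the authors' deposited tables are 2.56, 2.29, 2.94 and 3.16. A position in all 4 tables was uncommon: of 33993 listed positions 26 (0.0765%) were, while 89.9% were in 1 table. SNHG8 RNA was lower in the RBM33 set and not called in the ALKBH5 set.

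SNHG7 had a position in 3 tables, chr9:136726441-136726490, with effects of 1.19 for ALKBH5 shRNA-2, 1.58 for RBM33 shRNA-1 and 1.51 for RBM33 shRNA-2 in the authors' deposited tables. It lies between the SNORA17B and SNORA17A entries of the gene. SNHG17 had a position in both RBM33 tables, chr20:38420696-38420745, at 0.70 and 0.92 in the authors' deposited tables. For ALKBH5 shRNA-2 the neighbouring window at chr20:38420646-38420695 had the opposite sign, -0.58, in the authors' deposited table, and for ALKBH5 shRNA-1 a window at the 5′ end, chr20:38435326-38435375, had the highest effect of the 28 entries, 2.38. The other 19 positions under a current symbol were each in 1 table.

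SNHG29, whose RNA was called in no comparison, had 4 entries under its older symbol. At chr17:16470392-16470441 the authors' deposited tables list 1.41 for RBM33 shRNA-1 (authors' p = 7.9e-05) and 1.33 for RBM33 shRNA-2 (authors' p = 0.00012). The adjoining window chr17:16470342-16470391 was at 1.02 for ALKBH5 shRNA-2 (authors' p = 0.0078), and a window nearer the 5′ end, chr17:16441933-16441982, was at -1.37 (authors' p = 0.0075), both in the authors' deposited table.

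SNHG16, an RNA that was lower in the RBM33 set, had 5 entries, of which 4 were higher (0.84 to 1.41 in the authors' deposited tables) and 1, for ALKBH5 shRNA-2, was at -1.01. The ALKBH5 shRNA-1 and shRNA-2 windows that adjoin at chr17:76564561-76564610 and chr17:76564611-76564660 had opposite signs, 1.41 and -1.01, in the authors' deposited tables. By current symbol all 11 entries of host RNAs in the RBM33 tables were higher (5 and 6; 13 of 13 with SNHG29), where 87.6% and 87.5% of all entries were, and 12 of the 17 in the ALKBH5 tables were (6 of 7 and 6 of 10), where 64.7% and 72.5% of all entries were. Those lower, all in the authors' deposited tables of ALKBH5, were in SNHG11 (-1.22), SNHG16, ZFAS1 (-0.62), SNHG6 (-0.61) and SNHG17. Their authors' p-values were 0.0017 to 0.0052. The largest one listed in the authors' deposited tables was smaller for RBM33 shRNA-1 (0.00068) and RBM33 shRNA-2 (0.0011). The share of higher entries can therefore not be compared between the ALKBH5 and RBM33 tables. No entry carried the name or an older symbol of GAS5, SNHG1, SNHG5 or SNHG32, which were lower in the RBM33 set, nor of SNHG10, SNHG4 or SNHG19, which were higher in the ALKBH5 set. Of the 9 hosts that were lower in the RBM33 set, SNHG16, SNHG15, ZFAS1, SNHG8 and SNHG7 had a listed peak in some comparison. Another 2 entries lay inside a host's span under another gene's name (SCARNA17 in SNHG22, RCC1 in SNHG3), and the authors' 4 tables of m6A shares, of 20 to 725 peaks, held 0 of the hosts under either symbol.

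**Figure D5:**
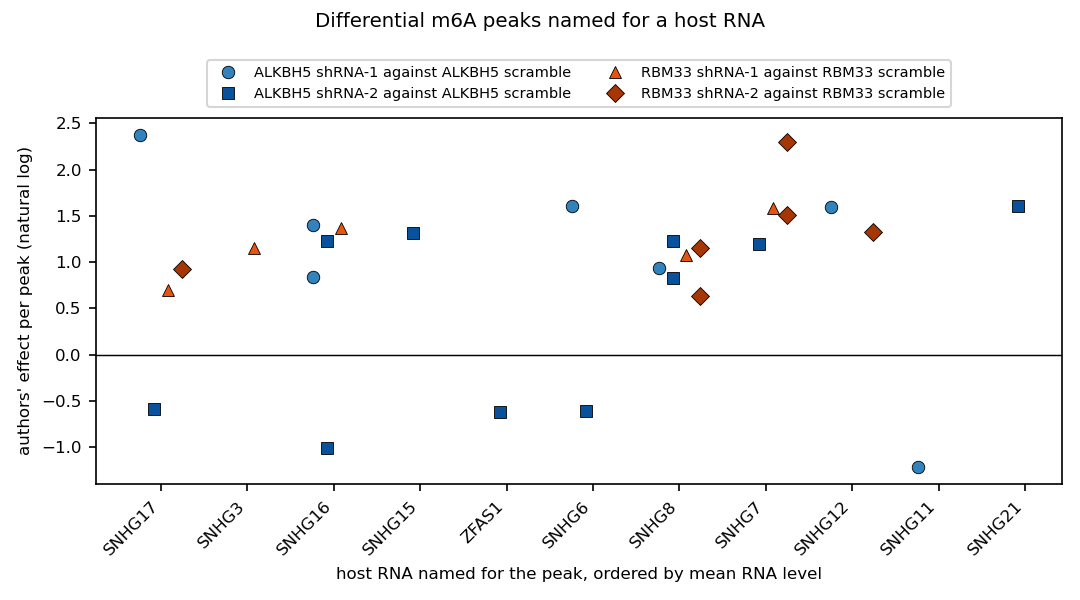
Effect (natural log of shRNA over scramble, vertical axis) of the 28 differential m6A peak entries under the current symbol of 11 hosts in the authors' deposited tables, ordered by mean RNA level; symbols mark the comparison and each point is 1 entry, with no spread over libraries. The orange entries of the RBM33 tables all lie above 0, and 5 blue entries of the ALKBH5 tables lie below 0. The authors' deposited RBM33 tables list p-values up to 0.00068 and 0.0011, and those of ALKBH5 up to 0.006 and 0.0083.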

How the data were processed

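RNA-seq of UM-SCC-1 cells was deposited by the authors as a table of CPM per gene and library, a normalized signal whose columns sum to slightly different totals. The submitters' processing notes name cutadapt 1.18, HISAT2 2.1.0, build hg38, featureCounts, Subread 1.6.4, edgeR 3.24.3 and DESeq2. Whether counting used strand is not given in the sources used. Values were whole multiples of 1 read within 0.1 read in 100% of cases, so counts of reads were recovered for the edgeR and DESeq2 alternatives. A count of 0 allows up to 3 reads, or 0.43 to 0.659 CPM, for counting error only. Replicate pairs differed by more than sampling noise, and each library was kept. Columns of other samples numbered 0.

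The authors deposited log2 fold changes with adjusted p-values (edgeR and DESeq2 tables) and, for m6A, peak tables with an effect on the natural log scale, a p-value and a score column, and tables of m6A levels as a fraction. Between 5.65% and 8.05% of the effects equal the natural log of a multiple of 0.5, against 0% on a log2 scale. Peak positions are 1-based.

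Changes were tested with limma 3.58.1 under R 4.3.3 (trend) on log2(CPM + 1), over genes averaging 1 CPM or more, in 1 model of the 6 groups (9 residual degrees of freedom), Benjamini-Hochberg adjusted, called under 0.05. The 3 libraries not analysed here lower the precision. edgeR 4.0.16 and DESeq2 1.42.0 were alternatives, beside other filters, scalings, pseudocounts, a length trend, a replicate block and each library left out. The fit was tested on simulated data. Single libraries are printed, among hosts called or with a peak, for the 14 with the highest mean, plus GAS5, ZFAS1 and EPB41L4A-AS1, and of other lists up to 4 called genes with the largest change. The hosts and lists were chosen with earlier results of these data known.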

Additional observations from a re-analysis of the deposited data

How the results depend on the processing

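The same 9 hosts were lower in the RBM33 set with each library scaled to the same total, with the length trend removed, with edgeR and with DESeq2, and leaving out 1 library gave 8 to 10. Counts that moved by over 1.5 times were as follows, and the cause was not tested. The ALKBH5 set gave 3 without a filter on low values. ALKBH5 shRNA-1 gave 5 with the length trend removed. ALKBH5 shRNA-2 gave 2 with a mean of at least 5 CPM and 2 with DESeq2. The difference of effects gave 1 with the length trend removed and 2 with DESeq2. The scramble comparison gave 0 with the same total, 1 with the length trend removed and 5 with its own groups alone. Leaving out 1 library gave 3 to 7 called hosts in the ALKBH5 set, 1 to 4 for ALKBH5 shRNA-1, 0 to 2 for ALKBH5 shRNA-2, 3 to 9 for RBM33 shRNA-1, 6 to 10 for RBM33 shRNA-2, 0 to 2 for the difference of effects, 0 to 4 between scrambles and 0 between the shRNA libraries. With both scrambles pooled, SNHG3 turned to -0.024 in the ALKBH5 set and 0.176 in the RBM33 set, and SNHG17 to 0.047 in the RBM33 set. In the ALKBH5 set, where they were not called, 4 hosts changed sign when 1 library was left out: SNHG6 (-0.143 to 0.106), SNHG7 (-0.093 to 0.056), SNHG12 (-0.169 to 0.096) and EPB41L4A-AS1 (-0.037 to 0.176). The SNHG17 call in the ALKBH5 set was lost in 13 of 15 such fits. Between libraries of different groups, r was -0.08 to 0.07 over 12 pairs of the same replicate number and -0.08 to 0.09 over 25 pairs of different numbers. In groups of 2 libraries the deviations mirror each other, so these values cannot decide whether replicate numbers pair the samples. With the replicate block 9 hosts were lower in the RBM33 set, 4 were called in the ALKBH5 set, where SNHG32 was lost (adjusted p = 0.067), and 2 between scrambles. The median of the tested hosts in the RBM33 set was -0.32 with a mean of at least 5 CPM. Depth limits the hosts under 10 CPM, whose standard errors in the ALKBH5 set were 0.23 to 0.36, against 0.07 for SNHG29.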
